A study of Mus musculus with 9 samples.

Results

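The genes described here encode 9 muscle proteins of the sarcomere: Actc1, Acta1, Myl4, Tnnt2, Myl2, Myl3, Ankrd1, Ankrd2 and Csrp3. Apart from Acta1, the actin of adult skeletal fibres, they are best known from the heart, from developing muscle or from slow and stretched fibres. All 9 were taken by name from the 55536 genes in the deposited tables, and all 9 had enough counts to be tested. RNA sequencing was done on muscle of male mice of the outbred ICR stock. Young vehicle mice (libraries 2, 3 and 4) were 2 months old and aged vehicle mice (libraries 1, 3 and 4) were 18 months old. Aged GW8510 mice (libraries 1, 3 and 4), also 18 months old, had received GW8510, a benzenesulfonamide, by intraperitoneal injection at 2 mg/kg a day for 14 days. The labels name no genetic change in any of the 3 groups, and the young and aged vehicle mice were given vehicle only. The labels do not name the muscle or tie a library to an animal of its own, and p-values here measure only the spread between samples, which may be technical.

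A sarcomere is the contractile unit of striated muscle, in which thin filaments of actin, tropomyosin and troponin slide past thick filaments of myosin. Most of its proteins are made from small gene families, and a fibre chooses among them by age, by type and by chamber in the heart. Embryonic skeletal muscle makes several isoforms that later remain in the heart, and adult skeletal fibres replace them. Cardiac alpha-actin, atrial myosin light chain and cardiac troponin T belong to that group. The ankyrin repeat proteins Ankrd1 and Ankrd2 bind titin in the I-band, Csrp3 (muscle LIM protein) sits at the Z-disc, and all 3 are known to respond to load, stretch or loss of the nerve.

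Actc1 encodes cardiac alpha-actin and Acta1 skeletal alpha-actin, which differ at few residues and polymerise into the same thin filament. Both lie on the minus strand of GRCm38, Actc1 at chr2:114047282-114053548 and Acta1 at chr8:123891769-123894751. Their coding sequences have the same length of 1134 bases, differ at 157 of them (86.2% identity), and share no identical run longer than 29 bases. Of the 50-base windows of the Actc1 transcript, 0% occur in that of Acta1. The upstream sequences below show the CArG box, the site that serum response factor binds in many muscle genes, in capitals. They are written 5′ to 3′ on the strand of the gene and cover the 250 bases before the RefSeq start site, less any bases at either end in a UTR of GENCODE M21. GENCODE also holds transcripts of Actc1 and Myl3 that start further upstream, so those windows lie inside the gene spans it gives (Myl3 at chr9:110741861-110769798). The windows are chr2:114052888-114053125 for Actc1, chr8:123894776-123895025 for Acta1, chr9:110763428-110763645 for Myl3 and chr11:104550484-104550662 for Myl4 (RefSeq, GRCm38.p6), of which the first 2 are on the minus strand and the others on the plus strand. Actc1, Acta1 and Myl3 are shown for their match, and Myl4 because it is the other gene whose level passed the test with age.
Actc1: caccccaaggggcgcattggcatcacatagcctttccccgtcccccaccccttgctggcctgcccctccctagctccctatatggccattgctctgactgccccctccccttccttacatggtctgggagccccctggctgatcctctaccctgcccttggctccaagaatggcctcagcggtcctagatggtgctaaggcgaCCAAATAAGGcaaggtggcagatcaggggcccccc
Acta1: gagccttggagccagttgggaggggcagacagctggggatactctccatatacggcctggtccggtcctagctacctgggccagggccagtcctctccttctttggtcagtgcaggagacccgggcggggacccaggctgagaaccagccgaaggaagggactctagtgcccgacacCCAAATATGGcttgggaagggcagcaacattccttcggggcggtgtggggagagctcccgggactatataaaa
Myl3: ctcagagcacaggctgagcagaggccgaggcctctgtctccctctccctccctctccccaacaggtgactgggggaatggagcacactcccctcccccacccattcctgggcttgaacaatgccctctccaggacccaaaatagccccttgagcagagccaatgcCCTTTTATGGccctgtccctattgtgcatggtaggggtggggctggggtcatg
Myl4: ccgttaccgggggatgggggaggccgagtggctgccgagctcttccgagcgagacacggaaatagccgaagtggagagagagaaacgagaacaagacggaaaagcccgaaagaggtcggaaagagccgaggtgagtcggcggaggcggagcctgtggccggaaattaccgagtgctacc

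RefSeq gave 12 promoters for the 9 genes, with a pair each for 3 of them. In the 250 bases before the start, searched on both strands, the CArG box occurred in 3 of the 12, against 1.47% of all 32851 promoters. Counted from the RefSeq start, it lay 47 to 38 bases before it in Actc1, 73 to 64 bases before it in Acta1 and 85 to 76 bases before it in Myl3. The M-CAT motif (CATTCC or its complement GGAATG), known as the site of TEAD factors, occurred in 4 of the 12 against 12.6% of all promoters. Those 4 belong to Acta1, Tnnt2, Ankrd1 and Myl3. An E-box (CANNTG), bound by MyoD family factors, occurred in 10 of the 12 against 66.2%, and the MEF2 site in 0 of the 12 against 2.92%. The window of Myl4 held no match to any of the 4 motifs, and in Acta1 and Myl3 no match to 1 motif overlapped a match to another. A match is a run of letters, and binding was not measured.

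Library totals ran from 21718930 to 27437937 counts, and 3 counts corresponded to 0.103 to 0.136 CPM (CPM are counts scaled for library size and composition). Aged vehicle library 4 stood apart, with a mean correlation of 0.942 with its own group where the other 8 libraries had 0.956 to 0.971. The labelled tissue was checked against marker lists by TPM, a unit that corrects for gene length. The 8 skeletal muscle markers include Acta1, itself among the genes described here. They summed to 118259 to 138711 TPM in young vehicle, 97697 to 115389 in aged vehicle and 89599 to 107213 in aged GW8510 libraries. The 14 heart chamber markers summed to 3.8 to 4.85, 3.15 to 4.27 and 4.75 to 7.41 TPM in the same order, with Myl7, Nkx2-5, Tbx20, Gata4 and Hand2 listed at 0 in all 9 libraries. Tests are edgeR's quasi-likelihood test over 14384 genes with Benjamini-Hochberg adjustment, a gene passed at an adjusted p under 0.05, and errors of log2 fold changes are standard errors.

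Ordered by TPM, Acta1 led in all 3 groups, Tnnt2 was the last of the 9, and the 7 genes between them changed places. Acta1 averaged 37304 ± 2643 TPM in young vehicle, 24995 ± 3628 in aged vehicle and 22568 ± 974 in aged GW8510 libraries (SD, n = 3 in each group). Actc1 was the second of the 9 genes in young vehicle at 448 ± 228 TPM, the fifth in aged vehicle at 19.4 ± 18.4 TPM and the eighth in aged GW8510 at 9.86 ± 1.80 TPM. The level of Tnnt2 was 2.31, 5.13 and 4.08 TPM. Of the 8 neighbouring pairs in that order, the ranges over the 3 libraries overlapped in 5 pairs in young vehicle, 7 in aged vehicle and 6 in aged GW8510. The gaps between ranges were those below Acta1 in all groups, below Actc1 and below Myl4 in young vehicle, and between Actc1 and Tnnt2 in aged GW8510. The name given to this set by its heart and embryonic members therefore covers Acta1, the adult skeletal isoform, only as the partner of Actc1.

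**Figure D1:**
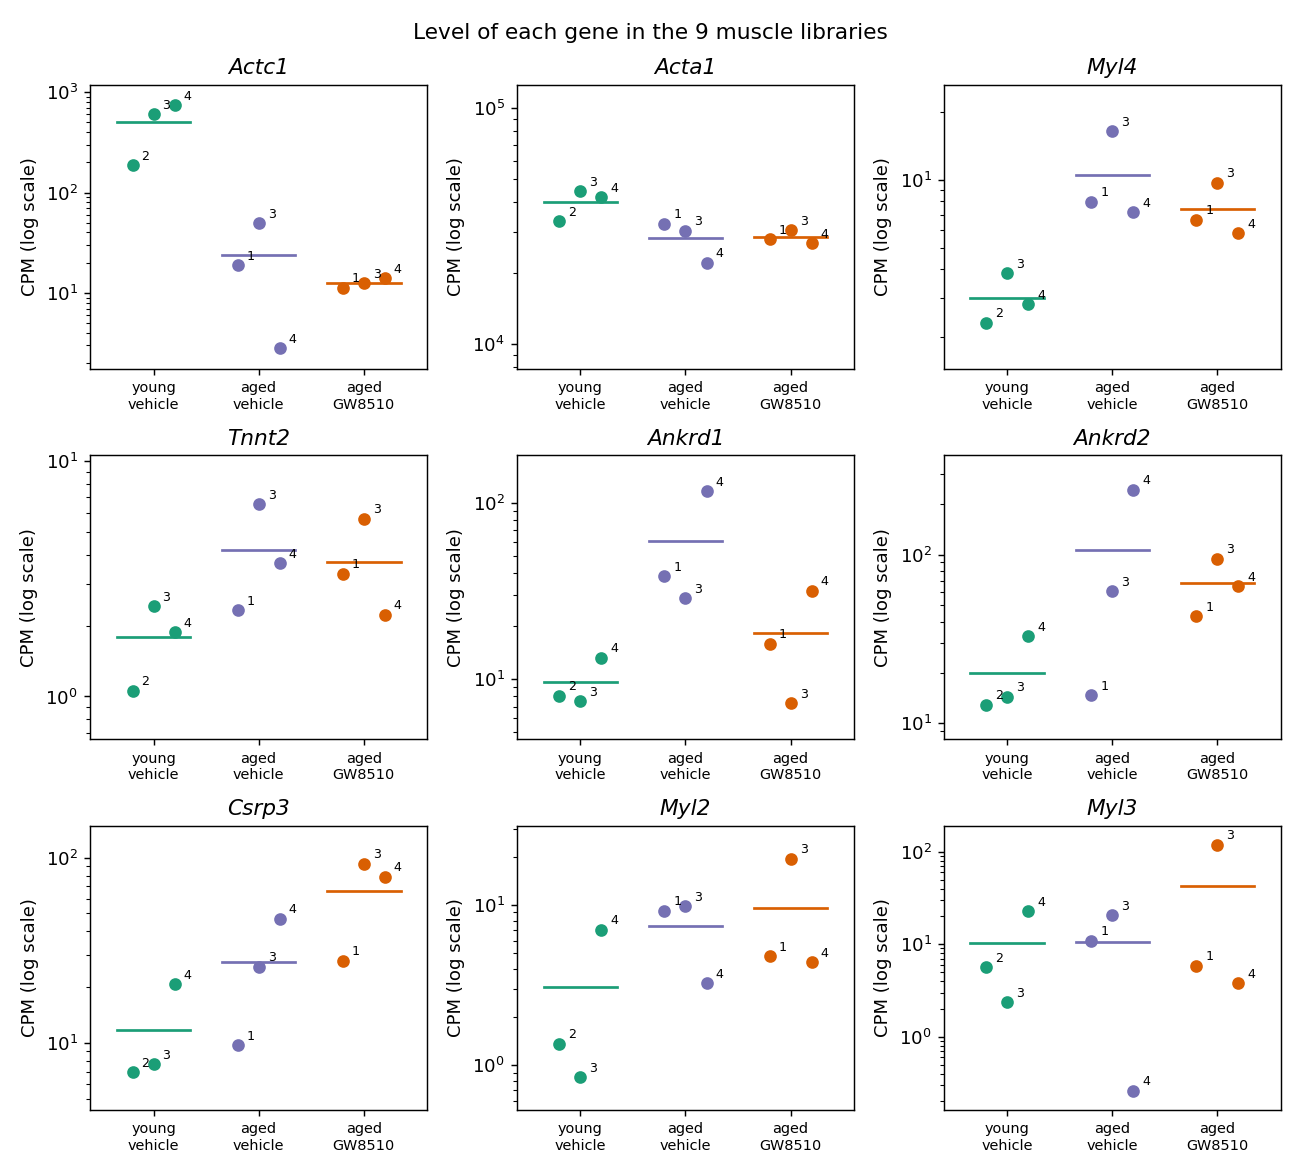
Level of each of the 9 genes in each of the 9 libraries (CPM, log axis), 1 panel per gene, points coloured by group with a bar at the group mean. Actc1 is the only panel in which the young vehicle libraries lie far above the others. Aged vehicle library 4 is the highest point for Ankrd1 and Ankrd2 and the lowest for Actc1, Acta1 and Myl3.

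The comparison of aged with young vehicle muscle asked what age does to these genes. Actc1 fell 21.4-fold and Myl4, the atrial and embryonic essential light chain of myosin, rose 3.52-fold, and the other 7 did not pass the test. Thus 2 of the 9 passed, where 1.22% of all tested genes did (0.521% higher and 0.695% lower). In 4 of the 9 (Actc1, Acta1, Myl4 and Ankrd1) the libraries of the groups did not overlap, against 26.2% of all tested genes. The median log2 fold change of the 9 was 1.23, against 0.01 over all genes, with Actc1 and Acta1 the members below 0. The 9 genes were chosen with earlier results of these data known. Shares set beside those of all genes are therefore a description, here and in the other comparisons.

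Actc1 stood at 187, 599 and 736 CPM in young vehicle libraries 2, 3 and 4. It stood at 19.0, 49.4 and 2.81 CPM in aged vehicle libraries 1, 3 and 4. Every aged vehicle library was below every young one, and the spread was wide within both groups. This is a log2 fold change of -4.42 ± 0.87 (edgeR, Benjamini-Hochberg adjusted p = 0.0462). With each of the 9 libraries left out in turn, the log2 fold change ran from -5.53 (without aged vehicle 3) to -3.90 (without aged vehicle 4). The call held in those 2 fits and was lost in the other 7, each without 1 young vehicle library, aged vehicle 1 or 1 GW8510 library, and the adjusted p over the 9 fits ran from 0.0279 to 0.136 (edgeR). It was lost too when only the 6 libraries compared were fitted (adjusted p = 0.0948, edgeR), and kept with limma-voom (0.0344) and DESeq2 (0.00016). The authors' deposited table marks Actc1 as significant, at a log2 ratio of -4.42. The 5 endothelial markers summed to 85.2 to 107 TPM in young vehicle and 56.2 to 67.5 in aged vehicle, and the fibroblast and tendon markers to 356 to 747 and 60.5 to 221 TPM. The part of such cells in the fall of Actc1 was not tested.

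Acta1, the isoform that adult skeletal fibres carry, stood at 33137, 44495 and 41957 CPM in young vehicle and at 32337, 30200 and 22167 CPM in aged vehicle. The groups did not overlap, but young vehicle 2 and aged vehicle 1 lay close together. Its log2 fold change of -0.50 ± 0.24 did not pass the test (edgeR adjusted p = 0.300). Gm20388, a gene annotated on the other strand over Acta1, held 1729 and 1733 CPM in aged vehicle 1 and 4 and 61.4 to 141 CPM in the other 7 libraries. Whether counting used strand is not given in the sources used here, so reads of the pair cannot be told apart. The sum of Acta1 and Gm20388 was 33198, 44565 and 42022 CPM in young vehicle and 34066, 30266 and 23900 CPM in aged vehicle. By this sum aged vehicle 1 lay above young vehicle 2. How many of the Gm20388 reads come from Acta1 was not tested.

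The share of Actc1 in the summed counts of both genes was 0.561% (95% Clopper-Pearson interval 0.547 to 0.576), 1.33% (1.31 to 1.35) and 1.72% (1.70 to 1.75) in young vehicle 2, 3 and 4. In aged vehicle 1, 3 and 4 it was 0.0587% (0.0538 to 0.0639), 0.163% (0.154 to 0.173) and 0.0127% (0.0098 to 0.0162). In aged GW8510 1, 3 and 4 it was 0.0405% (0.0356 to 0.0459), 0.0414% (0.0367 to 0.0465) and 0.0525% (0.0469 to 0.0587). The group means were 1.21 ± 0.591%, 0.0782 ± 0.0771% and 0.0448 ± 0.0067% (SD, n = 3). The young libraries lay above all 6 aged ones, while the aged vehicle libraries spread on both sides of the GW8510 libraries. The intervals cover counting error only, and within the young and the aged vehicle groups the libraries differed by far more than these intervals. Acta1 held the remainder of the summed counts in each library. A gene annotated on the strand opposite to Actc1 (A530058N18Rik) held 21.1, 25.7 and 108 counts in young vehicle libraries, 0 in each aged vehicle library and 1, 3 and 0 in the GW8510 libraries. Its counts in young vehicle were far below the 5470, 14173 and 18871 of Actc1.

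**Figure D2:**
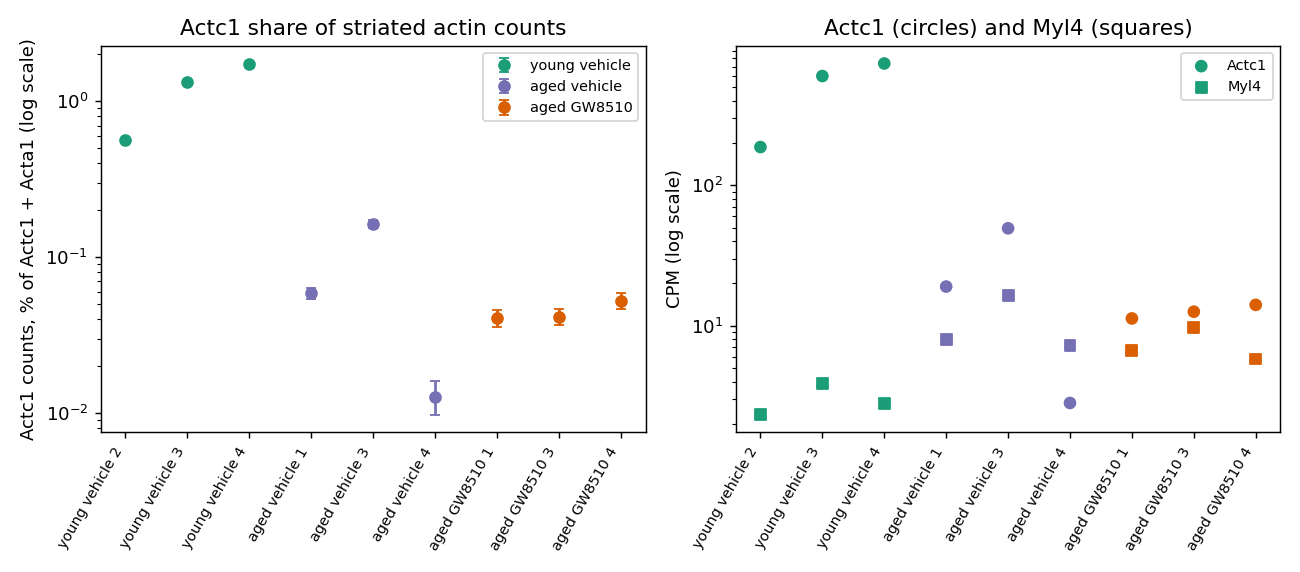
Actc1 as a percentage of the summed Actc1 and Acta1 counts in each library (log axis), with 95% Clopper-Pearson intervals, which cover counting error only. All 3 young vehicle libraries lie at 0.561% or higher, and none of the 6 aged libraries exceeds 0.163%.

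Myl4 was at 2.33, 3.85 and 2.81 CPM in young vehicle and at 7.97, 16.4 and 7.19 CPM in aged vehicle. All aged vehicle libraries lay above all young ones, and aged vehicle 3 was the highest of them. This difference came to 1.81 ± 0.36 on the log2 scale (edgeR, Benjamini-Hochberg adjusted p = 0.0465). Without 1 library at a time it ran from 1.34 (without aged vehicle 3) to 2.03 (without young vehicle 3). The call held without aged vehicle 4 and was lost in the other 8 fits, with adjusted p from 0.0371 to 0.160 over the 9 (edgeR). It was also lost with limma-voom (adjusted p = 0.0629) and when only the 6 libraries compared were fitted (0.0818, edgeR), and kept with DESeq2 (0.000158). The authors' deposited table marks Myl4 as significant.

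Tnnt2, cardiac troponin T, links tropomyosin to the troponin complex in heart and embryonic muscle. It stood at 1.06, 2.41 and 1.87 CPM in young vehicle and at 2.33, 6.54 and 3.68 CPM in aged vehicle. Aged vehicle 1 fell just under young vehicle 3, and the log2 fold change of 1.23 ± 0.48 did not pass (edgeR adjusted p = 0.210). As for Myl4, aged vehicle 3 was the highest library of its group.

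The ankyrin repeat genes were led by a single library. Ankrd1 stood at 8.07, 7.49 and 13.3 CPM in young vehicle and at 38.5, 28.9 and 117 CPM in aged vehicle. All aged vehicle libraries were above all young ones, and aged vehicle 4 was far above the other 2. A log2 fold change of 2.67 ± 0.63 did not pass (edgeR adjusted p = 0.0754), and it was 1.81 without aged vehicle 4. The authors' deposited table marks Ankrd1 as significant in this comparison.

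Ankrd2 stood at 12.9, 14.3 and 32.8 CPM in young vehicle and at 14.7, 60.9 and 242 CPM in aged vehicle. Aged vehicle 1 lay among the young libraries. The log2 fold change was 2.41 ± 0.82 (edgeR adjusted p = 0.171) and 0.91 without aged vehicle 4. Csrp3 stood at 6.98, 7.70 and 20.7 CPM in young vehicle and at 9.71, 25.8 and 46.8 CPM in aged vehicle. Its groups overlapped too, with aged vehicle 1 again among the young ones, and the log2 fold change of 1.22 ± 0.63 did not pass (edgeR adjusted p = 0.319; 0.58 on the log2 scale without aged vehicle 4).

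Aged vehicle 4 was also the library with the most RNA of genes known to rise when muscle loses its nerve. The 9 such markers summed to 366 TPM there, against 43.3 and 53.6 TPM in aged vehicle 3 and 1 and 40.1 to 70.6 TPM in the young and GW8510 libraries. Among them Gadd45a stood at 277 TPM against 15.4 to 47.4 elsewhere, and Myog, a myogenic factor, at 50.9 against 2.99 to 15.9 TPM. Runx1 stood at 3.34 TPM there against 0.34 to 0.93 elsewhere. Of the 6 satellite cell markers, which summed to 28.3 TPM there and to 6.36 to 11.2 TPM elsewhere, Cdh15 alone gave 24.8 TPM, while Pax7, the defining marker, was at its lowest of the 9 libraries (0.06 TPM against 0.10 to 0.41). The part of these genes in the levels of Ankrd1, Ankrd2 and Csrp3 was not tested. In whole muscle, fewer cells of a type and less RNA per cell cannot be told apart.

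Myl2 and Myl3, the regulatory and essential light chains of the ventricle and of slow fibres, did not pass. Myl2 stood at 1.37, 0.846 and 7.02 CPM in young vehicle and at 9.24, 9.81 and 3.25 CPM in aged vehicle, a log2 fold change of 1.27 ± 0.83 (edgeR adjusted p = 0.417). Myl3 stood at 5.61, 2.37 and 22.7 CPM in young vehicle and at 10.9, 20.7 and 0.260 CPM in aged vehicle, a log2 fold change of 0.06 ± 1.41 (edgeR adjusted p = 0.987). For both genes the groups overlapped, with young vehicle 4 high in its group and aged vehicle 4 low. Leaving out 1 library moved Myl2 from 0.83 (without young vehicle 3) to 2.73 (without young vehicle 4) and Myl3 from -0.86 (without aged vehicle 3) to 1.41 (without young vehicle 4). The 0.260 CPM of Myl3 in aged vehicle 4 rests on 6 counts.

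**Figure D3:**
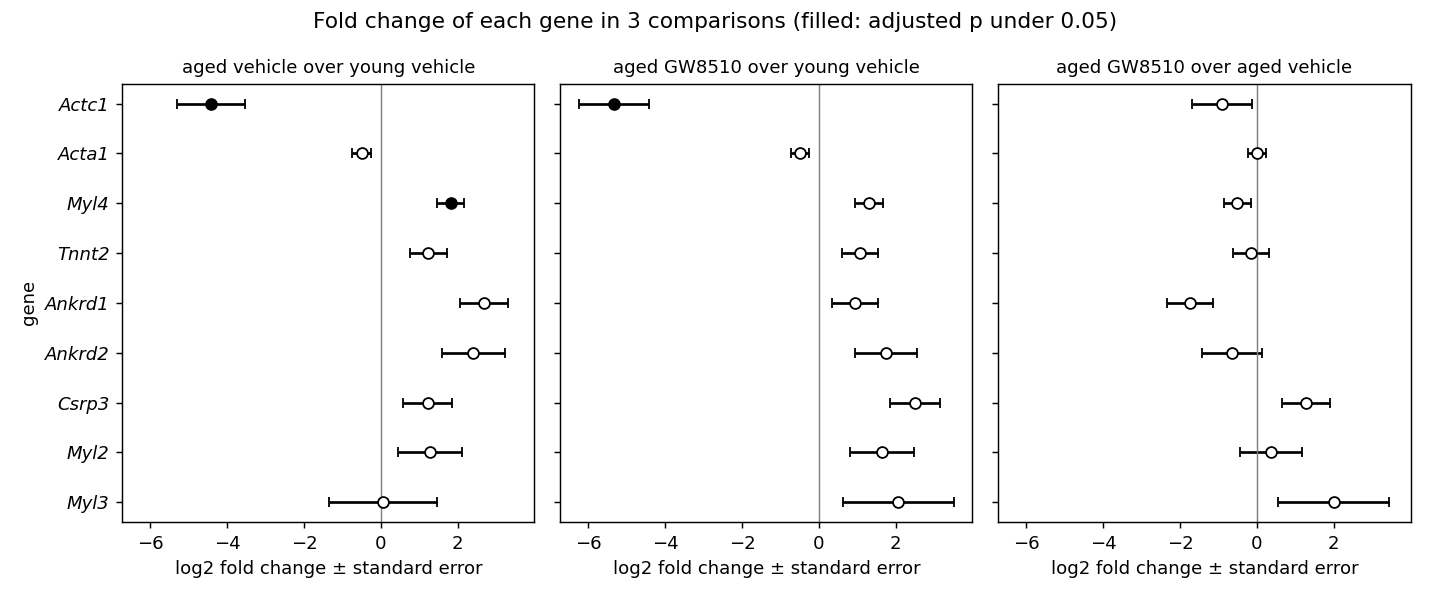
Log2 fold change of each gene with its standard error in the 3 comparisons, from the edgeR fit over 9 libraries, with filled points at an adjusted p under 0.05. Actc1 in both comparisons with young vehicle and Myl4 in aged over young vehicle are the filled points, and Actc1 lies at -4.42 and -5.33.

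The comparison of aged GW8510 with aged vehicle muscle asked what the compound does to these genes at 18 months. None of the 9 passed the test, and in none did the libraries of the groups separate. Over all tested genes 0% passed (edgeR quasi-likelihood test, Benjamini-Hochberg), 647 of 14384 (4.5%) had an unadjusted p under 0.05, and the groups did not overlap in 7.22%. DESeq2 called 8 genes and limma-voom 0, and neither called any of the 9. Ankrd1 was the only one of the 9 with an unadjusted p under 0.05 (0.0164). The median log2 fold change of the 9 was -0.16, against 0.01 over all genes.

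Ankrd1 stood at 15.9, 7.31 and 31.8 CPM in aged GW8510 1, 3 and 4, against the 38.5, 28.9 and 117 CPM of aged vehicle given above. GW8510 4 lay above aged vehicle 3, and the other 2 GW8510 libraries lay below every aged vehicle one. On the log2 scale the difference was -1.74 ± 0.60 (edgeR adjusted p = 0.934) and -0.89 without aged vehicle 4. Ankrd2 stood at 43.3, 94.7 and 65.1 CPM under GW8510, within the range of the aged vehicle libraries. Its log2 fold change was -0.65 ± 0.78 (edgeR adjusted p = 0.951), and 0.84 without aged vehicle 4.

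Csrp3 stood at 27.8, 92.6 and 78.8 CPM under GW8510, with GW8510 3 and 4 above all aged vehicle libraries and GW8510 1 within their range. Its log2 fold change was 1.28 ± 0.62 (edgeR adjusted p = 0.934), and 1.91 without aged vehicle 4. Csrp3 is a LIM protein that joins alpha-actinin and telethonin (Tcap) at the Z-disc. Tcap itself differed by 0.41 ± 0.21 on the log2 scale between GW8510 and aged vehicle (edgeR adjusted p = 0.934).

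Actc1 stood at 11.3, 12.6 and 14.1 CPM under GW8510, a much narrower range than the 2.81 to 49.4 CPM of aged vehicle, inside which it lay. The log2 fold change was -0.91 ± 0.78 (edgeR adjusted p = 0.934), and 0.21 without aged vehicle 3. Acta1 stood at 27767, 30385 and 26765 CPM, a log2 fold change of 0.00 ± 0.24. Myl4 stood at 6.63, 9.70 and 5.79 CPM (-0.51 ± 0.35) and Tnnt2 at 3.31, 5.67 and 2.23 CPM (-0.16 ± 0.46 on the log2 scale). None of these 4 isoforms passed, with adjusted p of 0.934 or more for each (edgeR).

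The slow light chains were set apart by GW8510 3. Myl3 stood at 5.86, 119 and 3.78 CPM under GW8510 and Myl2 at 4.81, 19.5 and 4.41 CPM. GW8510 3 held the highest level of both genes in the 9 libraries, and the other 2 GW8510 libraries lay within the range of aged vehicle. For Myl3 the log2 fold change was 2.00 ± 1.44 (edgeR adjusted p = 0.934) and -1.14 without GW8510 3. That of Myl2 was 0.36 ± 0.80 (edgeR adjusted p = 0.975) and -0.69 without GW8510 3.

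Of the 12 other slow fibre genes listed, 8 had their highest TPM of the 9 libraries in GW8510 3 and 4 (Sln, Pln, Myl6b and Atp2a2) did not. By TPM, slow myosin heavy chain Myh7 stood at 10.1 in GW8510 3 against 0.44 to 7.21 in the other 8 libraries. Slow troponin T (Tnnt1) stood at 37.2 against 4.67 to 22.1 TPM, and Tnnc1, the troponin C of slow fibres and heart, at 26.0 against 3.47 to 10.4 TPM. Sln stood at 1.90 TPM in GW8510 3 against 1.49 to 10.7 elsewhere, and Pln at 4.97 against 1.11 to 12.1. The 12 genes together, which do not include Myl2 and Myl3, summed to 235 TPM in GW8510 3 and to 78.6 to 165 TPM elsewhere. The 14 fast fibre genes summed to 116636 TPM in that library, the lowest of the 9, and to 122449 to 217983 elsewhere. Not every gene of that list was low there. The fast myosin heavy chain Myh1 was at its highest in GW8510 3, at 1396 TPM against 490 to 1206 elsewhere. The part of a fibre mix in the levels of Myl2 and Myl3 was not tested. Of the heart genes that were detected, Myh6, the myosin of the atria, stood at 2.96 TPM there and at 0.36 to 1.61 TPM elsewhere. Cardiac troponin I (Tnni3) stood at 1.08 TPM there and at 0 to 0.72 TPM elsewhere. The other detected heart genes were not highest in GW8510 3. Gja5 was highest in young vehicle 2 (2.91 TPM), Nppa in aged vehicle 4 (2.47 TPM) and Corin in young vehicle 4 (0.78 TPM). Tbx5, Ryr2, Nppb and Mybpc3 also had their highest TPM in other libraries.

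**Figure D4:**
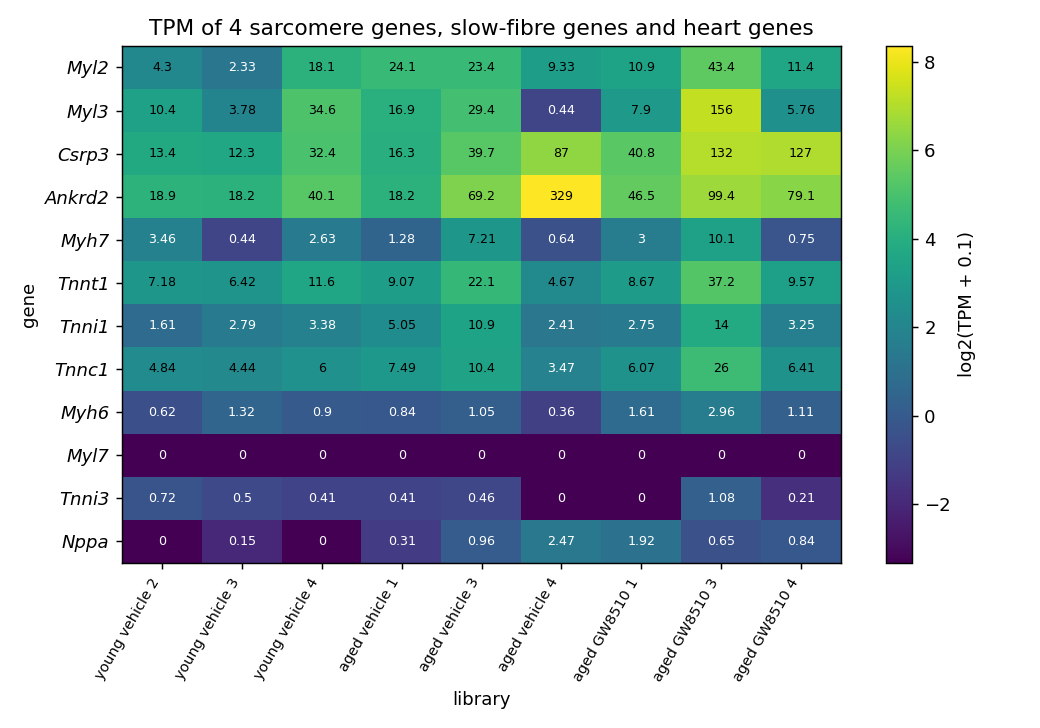
TPM of 4 of the sarcomere genes, of slow fibre genes and of heart genes in the 9 libraries, with the value printed in each cell and colour for log2(TPM + 0.1). Myl3, Myl2, Myh7, Tnnt1 and Tnnc1 have their highest value in GW8510 library 3, while Myl7, the atrial regulatory light chain, is at 0 in all libraries.

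The comparison of aged GW8510 with young vehicle muscle shares its young libraries with the age comparison, and only its own values are given. Actc1 fell 40.2-fold and the other 8 genes did not pass, where 0.751% of all tested genes did (0.417% lower). In 5 of the 9 (Actc1, Acta1, Myl4, Ankrd2 and Csrp3) the groups did not overlap, against 25.7% of all tested genes. The median log2 fold change of the 9 was 1.30, against 0.01 over all genes. For Actc1 the log2 fold change was -5.33 ± 0.91 (edgeR, Benjamini-Hochberg adjusted p = 0.0307). The call held without young vehicle 2, aged vehicle 3 or aged vehicle 4 and was lost in the other 6 fits that left out a library, with adjusted p from 0.00289 to 0.150 over the 9 (edgeR).

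Csrp3 had a log2 fold change of 2.49 ± 0.65 (edgeR adjusted p = 0.0958), with all 3 GW8510 libraries above the 6.98 to 20.7 CPM of young vehicle. It passed when aged vehicle 4 was left out of the shared estimate of spread (edgeR adjusted p = 0.0470) and in none of the other 8 such fits (up to 0.288). Myl4 was 1.30 ± 0.36 higher on the log2 scale (edgeR adjusted p = 0.109), and Ankrd2 1.76 ± 0.81 higher (adjusted p = 0.309). For both, every GW8510 library lay above every young one. Acta1 had a log2 fold change of -0.49 ± 0.24 (edgeR adjusted p = 0.343), also without overlap. Ankrd1 (0.93 ± 0.60), Tnnt2 (1.07 ± 0.48), Myl2 (1.64 ± 0.83) and Myl3 (2.06 ± 1.45) did not pass, and their groups overlapped. Left-out libraries moved Ankrd1 from 0.25 (without GW8510 4) to 1.31 (without GW8510 3) and Tnnt2 from 0.64 (without GW8510 3) to 1.35 (without young vehicle 3). Without GW8510 3 Myl2 was 0.58 and Myl3 -1.09, and without young vehicle 4 they were 3.10 and 3.41. The authors' deposited table marks Actc1, Myl4, Ankrd2 and Csrp3 as significant here.

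Related genes were followed through 6 lists. Among 16 developmental and regeneration genes, 0 passed in either direction in any comparison. Myh8, the perinatal myosin heavy chain, stood at 20.5, 3.41 and 99.96 TPM in young vehicle, at 1.37, 4.38 and 5.85 TPM in aged vehicle and at 1.05, 0.56 and 6.40 TPM under GW8510. Young vehicle 3, the lowest of its group, lay among the aged libraries, so that the order of the young libraries by Myh8 was not their order by Actc1. The log2 fold change of Myh8 was -2.86 ± 1.06 with age (edgeR adjusted p = 0.195) and -3.34 ± 1.09 in GW8510 over young vehicle (adjusted p = 0.163). In the age comparison the smallest p values of the list were those of Runx1 (log2 fold change 1.90, edgeR adjusted p = 0.0894) and Chrng, the fetal acetylcholine receptor subunit (3.32, adjusted p = 0.164). In GW8510 over young vehicle Myod1 came first (-0.81, edgeR adjusted p = 0.0999), and in GW8510 over aged vehicle Runx1 (-1.24) and Myog (-1.84), both at an adjusted p of 0.934. The list's median log2 fold change was 0.85 with age, -0.79 under GW8510 and -0.09 in GW8510 over young vehicle.

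Of 26 genes of the Z-disc and of the titin region that holds the ankyrin repeat proteins, 0 passed with age and 0 under GW8510. Tcap, which caps titin at the Z-disc, rose in GW8510 over young vehicle, at 3130 ± 666 against 1345 ± 87.4 CPM (log2 fold change 1.22 ± 0.21, edgeR adjusted p = 0.0317). It was the only one of the 26 to pass there, where 0.334% of all tested genes passed as higher. Whether this call of Tcap holds with a library left out or under other settings was not tested. With age Tcap (0.81 ± 0.21) and Fhl1, a LIM protein (1.29 ± 0.37), had the smallest p values and did not pass (edgeR adjusted p = 0.0913 and 0.123). Under GW8510 they were Csrp1 (0.68) and Xirp2 (-0.69), both at an adjusted p of 0.934. The list's medians were 0.24, 0.07 and 0.15 in the order age, GW8510 over aged vehicle and GW8510 over young vehicle.

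Among the 22 genes of the serum response factor and YAP pathways, of which 21 were tested, 0 rose and 2 fell with age. Over all tested genes 0.521% passed as higher and 0.695% as lower. Egr1, an immediate early gene, fell from 23.6 ± 12.8 to 4.99 ± 1.03 CPM (log2 fold change -2.25 ± 0.34, edgeR adjusted p = 0.0288). Ccn1, a secreted matrix protein, fell from 80.9 ± 5.27 to 36.7 ± 11.9 CPM (-1.14 ± 0.22, adjusted p = 0.0462). In GW8510 over young vehicle Egr1 fell by 1.80 on the log2 scale (edgeR adjusted p = 0.0475) and the other 20 did not pass. There 0.417% of all tested genes passed as lower. Whether these calls of Egr1 and Ccn1 hold with a library left out or under other settings was not tested. Under GW8510 none of the 21 passed, and Ccn2 (1.09) and Fos (1.37) had the smallest p values (adjusted p = 0.934 for both). The list's medians were -0.35, 0.11 and -0.38 in the same order of comparisons. The 8 fibroblast and tendon markers, cells in which Ccn1 and Ccn2 are also made, summed to 356 to 747 TPM in young vehicle, 60.5 to 221 in aged vehicle and 116 to 266 in aged GW8510. The part of those cells in the values of Egr1 and Ccn1 was not tested.

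None of the 4 other actin genes passed in any comparison. Cytoplasmic beta-actin (Actb) stood at 379 ± 21.9 CPM in young vehicle, 220.0 ± 72.3 in aged vehicle and 235 ± 20.3 in aged GW8510, a log2 fold change of -0.79 ± 0.23 with age (edgeR adjusted p = 0.121). Gamma-actin (Actg1) had -0.98 ± 0.28 (edgeR adjusted p = 0.121), and smooth muscle actin Acta2 -0.39 ± 0.33 (adjusted p = 0.534). In GW8510 over young vehicle Actb had -0.69 (edgeR adjusted p = 0.168) and Actg1 -0.83 (adjusted p = 0.176), and under GW8510 the smallest p values were those of Acta2 (0.53) and Actg2 (1.07). The list's medians were -0.88 with age, 0.34 under GW8510 and -0.44 in GW8510 over young vehicle, so Actc1 was the only one of the 6 actin genes to pass.

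The slow and fast fibre lists held no gene that passed. Of the 12 slow fibre genes, phospholamban (Pln, 1.71 ± 0.59) and sarcolipin (Sln, 1.73 ± 0.72), both inhibitors of the calcium pump, had the smallest p values with age (edgeR adjusted p = 0.171 and 0.235). In GW8510 over young vehicle they were Tnnc1 (1.62) and Sln (1.75), and under GW8510 Tpm3 (0.96) and Myh7b (1.22). Of the 14 fast fibre genes, the calcium store protein Casq1 (-1.01 ± 0.47) and the light chain Mylpf (-0.50 ± 0.28) came first with age (edgeR adjusted p = 0.278 and 0.347). They were Myl1 (-0.74) and Casq1 (-0.99) in GW8510 over young vehicle, and Myh2 (-0.34) and Myh1 (0.39) under GW8510. The medians of the slow list were 0.49, 0.41 and 1.16 and those of the fast list -0.23, -0.0012 and -0.27, in the order age, GW8510 over aged vehicle and GW8510 over young vehicle.

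Genes whose log2 CPM followed 4 of the genes most closely over the 9 libraries were ranked by Pearson's r among 11389 genes, as a description, since the points share groups and libraries. For Actc1 they were Srl (0.98), Mapk8ip1 (0.98), Fras1 (0.97), Hacd1 (0.97) and Trak1 (0.97). Srl, sarcalumenin of the sarcoplasmic reticulum, averaged 1602 CPM in young vehicle, 1176 in aged vehicle and 1107 in aged GW8510. For Myl4 they were Fam185a (0.97), Dnaja3 (0.96), Tmem37 (0.95), Nt5c3b (0.92) and Hint2 (0.91). For Ankrd1 they were Lonp2 (0.96), Ercc6l2 (0.95), Usp25 (0.94), Arih1 (0.94) and Ppp1r7 (0.94), and for Myl2 they were Actr3b (0.92), Foxred1 (0.92), Trmt10c (0.90), Rnf217 (0.89) and Zfp277 (0.88). None of these 20 genes is one of the 9, and Ankrd2 was not among the 5 genes closest to Ankrd1.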

How the data were processed

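The deposited data are expected counts and TPM per gene and library, 3 tables of 55536 genes, 1 for each pair of groups, with the authors' log2 ratios and adjusted p-values. Per the file headers the expected counts were deposited without normalization, and 91.4% of the values were whole numbers (within 0.001). TPM values were deposited by the authors per library and were used only to set levels of different genes side by side. The submitters' processing notes name CASAVA, HISAT2, StringTie, RSEM, DESeq2, edgeR and GRCm38, with no versions or roles. The annotation and the use of strand in counting are not given in the sources used here. The authors' deposited log2 ratios and adjusted p-values are quoted only as theirs.

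Expected counts were rounded to whole numbers, filtered with edgeR's filterByExpr (14384 genes left, 29823 without any count) and scaled by TMM. Comparisons were tested two-sided by quasi-likelihood in edgeR 4.0.16 (R 4.3.3), in a single fit of the 9 libraries, and p-values had Benjamini-Hochberg adjustment over all genes tested, at a threshold of 0.05. A standard error is the size of the log2 fold change divided by the root of the F statistic. Alternatives were DESeq2 1.42.0, limma-voom (limma 3.58.1), RLE size factors, no filter on low counts, fits of 6 libraries, a replicate block, and each library left out. Promoters, transcripts and coordinates came from RefSeq and GENCODE M21 (GRCm38).

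All 9 genes are named in every comparison. Of each gene list those past the threshold are named, or otherwise the 2 with the smallest p, and for Actc1, Myl4, Ankrd1 and Myl2 the 5 genes with the highest Pearson's r of log2 CPM among those with a mean of at least 1 CPM, without pseudogenes and clone-style symbols. The genes and lists were chosen with earlier results of these data known. Other genes and libraries were named after their values were seen.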

Additional observations from a re-analysis of the deposited data

How the results depend on the processing

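Leaving out 1 library moved the number of the 9 genes called from 2 to between 0 and 2 with age and from 1 to between 0 and 2 in GW8510 over young vehicle. The genes called overall ran from 19 to 148 (175 with all libraries), from 0 to 2 (0) under GW8510, and from 25 to 594 (108) in GW8510 over young vehicle. With DESeq2, 943, 8 and 825 genes were called with age, under GW8510 and in GW8510 over young vehicle, and the 9 genes gave 3, 0 and 3 calls (Ankrd1 with age, Myl4 and Csrp3 in the last). With limma-voom 1 of the 9 passed with age (Actc1, with Myl4 lost). Without the filter 699, 5 and 553 genes were called, with 4, 0 and 3 of the 9. In fits of the 6 libraries compared, 50 genes and 0 of the 9 passed with age (Actc1 and Myl4 lost), and 469 genes and 3 of the 9 in GW8510 over young vehicle. The cause of these shifts was not tested.

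Libraries with the same replicate number did not stand out as pairs. Their deviations from the group means correlated between -0.21 and 0.14, against -0.23 to 0.27 for libraries with different numbers. With so few libraries this cannot tell whether the numbers mark a shared batch. With the replicate block, 5 genes and 0 of the 9 were called with age and 8 genes and 0 of the 9 in GW8510 over young vehicle. Under the block the log2 fold change of Actc1 was -5.13 with age and -5.72 in GW8510 over young vehicle, and that of Myl4 1.69 with age. Under the block Myl3 turned to -2.43 with age and -0.91 in GW8510 over young vehicle, and Ankrd2 to 0.17 under GW8510.

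Other reversals all concerned values that had not passed. With limma-voom Myl3 was -0.68 with age and Ankrd2 0.086 under GW8510. Acta1 under GW8510 was -0.0055 with DESeq2, -0.0051 with RLE factors and -0.0013 without the filter. With 1 library left out the log2 fold change with age of Myl3 ran from -0.86 to 1.41. Under GW8510 it ran from -1.44 to 0.21 for Actc1, from -0.16 to 0.11 for Acta1, from -0.59 to 0.31 for Tnnt2, from -1.17 to 0.84 for Ankrd2, from -0.69 to 0.71 for Myl2 and from -1.14 to 2.92 for Myl3. In GW8510 over young vehicle it ran from -1.09 to 3.41 for Myl3. The share of Actc1 from TPM was 1.17%, 0.0759% and 0.0435% in young vehicle, aged vehicle and aged GW8510. Groups of 3 libraries limit the precision. The level of Myl3 in aged vehicle 4 rests on 6 counts, and elsewhere the gene had 56 to 2682 counts.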
